A study of Mus musculus with 6 samples.

Results

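The complement regulators Cfi, Clu, Cd55, Cd59a, Cr1l and Csmd1, the protease gene Masp1 and the anaphylatoxin receptors C3ar1 and C5ar1 were examined in mouse frontal cortex. These 9 genes were taken by symbol from a count table of 33000 genes, and each symbol had a single row. TruSeq libraries, in which mRNA is sequenced along its length, were available from 3 wild-type (WT) mice and 3 mice homozygous for GFAP-IL6. All mice were on the C57BL/6 strain and 3 months old, and each library came from its own animal. The GFAP-IL6 mouse expresses the inflammatory cytokine IL6 from a transgene under the promoter of the astrocyte gene Gfap.

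Complement is a cascade of plasma and tissue proteins that tags cells and debris for removal. Its activation cleaves C3 and C5, and the small fragments released, C3a and C5a, are called anaphylatoxins. They act through the G protein-coupled receptors encoded by C3ar1 and C5ar1, which in the brain are known mainly from microglia. Regulators keep the cascade away from host cells. Factor I, encoded by Cfi, is a plasma protease that cuts C3b and C4b with the help of cofactors, and clusterin, encoded by Clu, is a secreted chaperone that can block the terminal complex. On cell membranes, Cd55 speeds the decay of the convertases, Cr1l (also called Crry) acts as a rodent cofactor for factor I, and Cd59a blocks the membrane attack complex. Csmd1 encodes a large membrane protein of neurons that is also known to inhibit complement. Masp1 encodes a serine protease of the lectin pathway and, by alternative splicing, a protein that lacks the protease, and it was counted with neither the regulators nor the receptors.

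Total counts were between 7559524 and 16877001 per library, and every GFAP-IL6 library was shallower than every WT library, the deepest of them holding 11072008 counts against 11591066 in the shallowest WT library. Il6 had at most 2 counts in any WT library and between 10 and 24 in the GFAP-IL6 libraries, in accord with the labels. Defining markers of neurons, astrocytes, oligodendrocytes and microglia were all detected. Of the T cell markers, Cd3d had 0 counts throughout, and Cd3e had 0 in each WT library and 3, 1 and 2 in GFAP-IL6 replicates 1, 2 and 3. WT replicate 3 stood apart in 6 choroid plexus markers, whose summed level was 609 CPM (counts scaled to a common library size) there against 3.22 to 59.7 CPM in the other 5 libraries. Values of both receptors and of Clu are therefore also given without it. Between groups, 6 endothelial markers summed to 111 to 133 CPM in WT and 184 to 218 CPM in GFAP-IL6, with 3 of them past an adjusted p of 0.05 by edgeR. Gfap, an astrocyte gene that is also the source of the transgene promoter, rose from 94.5 ± 24.8 to 678 ± 179 CPM (SD, n = 3 each; edgeR, adjusted p = 5.5e-06). None of the 7 other astrocyte markers passed, nor did any of the neuron or oligodendrocyte markers, and the part of the Gfap and endothelial shifts in the member values was not tested.

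C5ar1 rose in GFAP-IL6 cortex by a fitted 4.60-fold (95% interval 2.56 to 8.25) and was the only member of the 8 tested to be called. C3ar1 was 1.89-fold higher (1.30 to 2.76) but missed the threshold over all genes. None of the 5 regulators tested passed, and their intervals together spanned folds of 0.616 to 1.48. Cfi was at the floor of detection in every library.

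A differentially expressed gene (DEG) was one with an adjusted p below 0.05 whose log2 fold change exceeded 1 in either direction. Of 9 members, 8 passed the filter on low counts and 1 was a DEG. Over all 15341 genes tested, 1.38% were DEGs, with 1.36% higher and 0.013% lower in GFAP-IL6. With no threshold on the fold change the count of members stayed at 1, against a background of 2.86% (2.65% higher and 0.209% lower). An unadjusted p below 0.05 was reached by 2 members, C3ar1 and C5ar1, and by 20.5% of all genes tested. The median log2 fold change was 0.18 over the 8 members tested and 0.00 over all genes tested. A value above 0 was found in 6 members and in 49.4% of all genes tested. In 3 members (C3ar1, C5ar1 and Cr1l) all GFAP-IL6 libraries lay above all WT libraries, a pattern found in 13.8% of the genes tested. The opposite pattern was found in 12.7% of the genes and in no member, and either one in 26.5%.

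The promoters of both receptor genes and of Cd59a are shown, since the receptors were higher in all GFAP-IL6 libraries while Cd59a, a regulator on membranes, overlapped between groups. RefSeq windows on GRCm38.p6, reaching from 250 bases before to 50 after the start of the gene, were held for 5 of the 9 members (Cd55, Cd59a, Cr1l, C3ar1 and C5ar1). Only the longest stretch before the start that contains no annotated exon is printed, which for C5ar1 lies between annotated alternative first exons, 5′ to 3′ on the strand of the gene. The stretches are chr6:122856162-122856407 on the minus strand for C3ar1, chr7:16259339-16259512 on the minus strand for C5ar1 and chr2:104095551-104095800 on the plus strand for Cd59a. Capitals mark a match to one of the 3 motifs searched.
C3ar1: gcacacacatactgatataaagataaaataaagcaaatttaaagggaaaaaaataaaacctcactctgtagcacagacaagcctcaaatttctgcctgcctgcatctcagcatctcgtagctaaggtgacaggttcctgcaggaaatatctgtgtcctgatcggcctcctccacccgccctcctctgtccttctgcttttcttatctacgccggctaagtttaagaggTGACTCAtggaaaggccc
C5ar1: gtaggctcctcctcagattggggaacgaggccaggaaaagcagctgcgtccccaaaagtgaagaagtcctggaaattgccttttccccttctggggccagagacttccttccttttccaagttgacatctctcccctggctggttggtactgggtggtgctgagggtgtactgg
Cd59a: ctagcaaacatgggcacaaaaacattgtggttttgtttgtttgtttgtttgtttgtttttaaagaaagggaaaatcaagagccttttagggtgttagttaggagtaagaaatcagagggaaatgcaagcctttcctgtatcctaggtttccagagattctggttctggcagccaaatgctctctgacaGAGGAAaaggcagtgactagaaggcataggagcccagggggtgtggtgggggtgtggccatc

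The motifs were the STAT site TTCNNNGAA, the PU.1 core GAGGAA and the AP-1 site TGANTCA, each searched on both strands over the full windows of 300 bases. The C3ar1 window held 1 AP-1 match, which begins 22 bases before the start of the gene and is found on both strands, since the pattern TGANTCA is symmetric apart from its free middle base. The Cd59a window held 1 PU.1 match, which begins 62 bases before the start, and it overlapped no other motif. The windows of C5ar1, Cd55 and Cr1l held no match to any of the 3. Over all 32851 RefSeq windows of that length, 8.30% held the STAT site, 28.3% the PU.1 core and 7.81% the AP-1 site. These matches describe letters and not binding.

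The anaphylatoxin receptors were examined first. C5ar1 (ENSMUSG00000049130.5, GRCm38 chromosome 7, 16246743 to 16259540, minus strand), the receptor for C5a, had 8, 8 and 18 counts in WT replicates 1, 2 and 3 and 33, 18 and 48 in GFAP-IL6 replicates 1, 2 and 3. Scaled by TMM, which corrects for library depth and composition, its level was 0.697, 0.477 and 1.13 CPM in WT and 2.96, 2.38 and 5.36 CPM in GFAP-IL6. The lowest GFAP-IL6 library thus lay above the highest WT library, and GFAP-IL6 replicate 3 was the highest of all. The means were 0.768 ± 0.332 and 3.56 ± 1.58 CPM (SD, n = 3 each).

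For C5ar1 the quasi-likelihood test of edgeR gave a log2 fold change of 2.20 ± 0.39 (SE; adjusted p = 0.00713). The call rested on GFAP-IL6 replicate 3: without that library the value was 1.80 with an adjusted p of 0.0699, whereas without WT replicate 3 it was 2.62 with an adjusted p of 0.00611. With all libraries thinned to the depth of the smallest, it was 2.33 (adjusted p = 0.00742). C5ar1 passed the low-count filter through its GFAP-IL6 libraries, since only 1 WT library reached the level of 0.882 CPM that the filter requires in 3 libraries. The gene nearest to C5ar1 in profile, by the largest log2 difference over the 6 libraries after centring on WT, was Cd52 (0.28), which encodes a small surface glycoprotein of leukocytes. Cd52 had a log2 fold change of 1.94 (edgeR, adjusted p = 0.00153). The next was Pik3ap1 (0.37), which encodes an adaptor of phosphoinositide 3-kinase in immune cells, with a log2 fold change of 1.77 (edgeR, adjusted p = 0.00359). Both genes were picked for their likeness to C5ar1 in these libraries, so their changes follow from that choice and are a description only.

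C3ar1 (ENSMUSG00000040552.8, chromosome 6, 122847138 to 122856161, minus strand), the receptor for C3a, had 22, 50 and 56 counts in WT replicates 1, 2 and 3 and 47, 45 and 56 in GFAP-IL6. As the GFAP-IL6 libraries were shallower, the scaled levels were 1.92, 2.98 and 3.52 CPM in WT and 4.21, 5.94 and 6.25 CPM in GFAP-IL6. The groups did not overlap, but the highest WT library and the lowest GFAP-IL6 library were close. The means were 2.80 ± 0.814 and 5.47 ± 1.10 CPM (SD, n = 3 each).

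The log2 fold change of C3ar1 was 0.92 ± 0.25 (SE), with a 95% interval of 0.37 to 1.47. Its p was 0.00307 before adjustment and 0.0770 after adjustment over all genes by edgeR, so that it was not called. The same test without the low-count filter gave an adjusted p of 0.00919, and DESeq2 gave 0.0729. Without WT replicate 3 the value was 1.11, with an adjusted p of 0.0642. C3ar1 has exons of its own, and no other annotated gene shares bases with them.

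**Figure D1:**
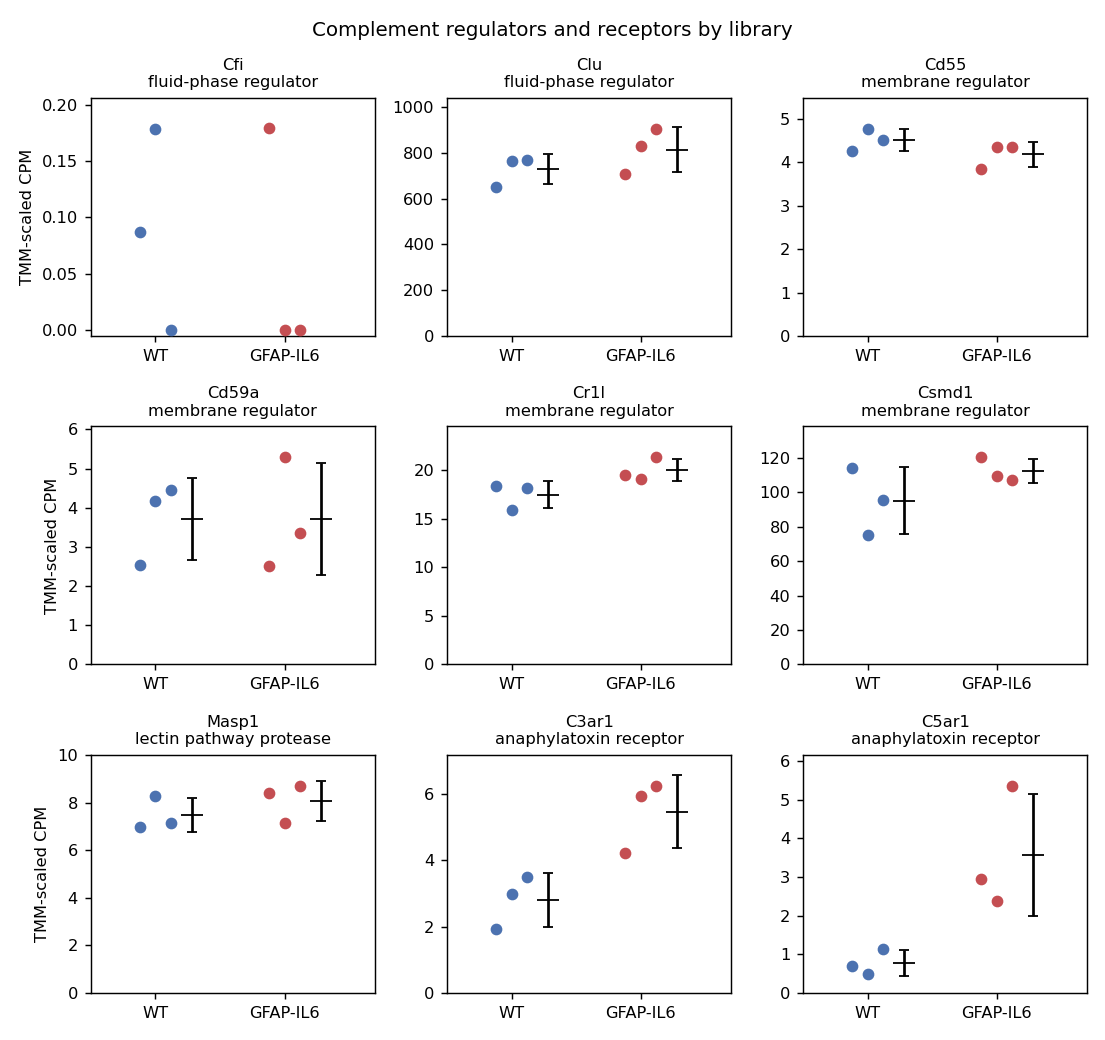
TMM-scaled CPM (y axis, linear from 0, a scale of its own in each panel) of the 9 genes in 3 WT libraries (blue) and 3 GFAP-IL6 libraries (red). Points are libraries in the order of replicates 1 to 3, and black marks are means with SD, left out for Cfi, which had at most 3 counts per library. The GFAP-IL6 points lie above all WT points for C3ar1, C5ar1 and Cr1l and overlap with WT in the other panels.

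The balance between the receptors was also compared. The ratio of C5ar1 to C3ar1 CPM was 0.364, 0.160 and 0.321 in WT replicates 1, 2 and 3 and 0.702, 0.400 and 0.857 in GFAP-IL6. It was higher in each GFAP-IL6 library than in any WT library, by 1.23 on the log2 scale, and the exact permutation test (two-sided) gave p = 0.1, the smallest value that 3 against 3 libraries allow. C5ar2, a second receptor for C5a that does not couple to G proteins, was counted 8, 27 and 16 times in WT libraries, against 36, 14 and 24 times in those of GFAP-IL6. The fitted difference was 1.20 ± 0.34 (SE) on the log2 scale (edgeR, adjusted p = 0.0830). C5ar2 also needed its GFAP-IL6 libraries to pass the low-count filter, since WT replicate 1, with 8 counts, lay under the required level.

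The ligands of these receptors are fragments of C3 and of C5, the latter encoded by Hc. C3 rose from 0, 5 and 2 counts in the WT libraries to 50, 25 and 71 in those of GFAP-IL6, by 4.97 ± 0.53 (SE) on the log2 scale (edgeR, adjusted p = 0.000169). C3 passed the low-count filter only through its GFAP-IL6 libraries, so it could be tested only because it was high there. Hc had between 0 and 3 counts in all 6 libraries, at or under the floor of 3 counts, and no change could be detected at this depth. The precursor of C3a was thus measurable as a transcript in GFAP-IL6 cortex, and the precursor of C5a was not.

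Both receptors are known from microglia, and 8 microglial markers were therefore measured beside them. Their summed level was 364 to 453 CPM in WT and 627 to 721 CPM in GFAP-IL6, higher by 0.68 on the log2 scale (exact two-sided permutation p of 0.1). Of the 8 markers, 6 had an adjusted p under 0.05 and were higher (among them Tmem119, Cx3cr1, Csf1r, Aif1 and Fcrls), and P2ry12 had a log2 fold change of -0.27 (edgeR, adjusted p = 0.291). In bulk tissue, more cells of a type and more RNA per cell cannot be told apart.

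Relative to 100 CPM of these markers, C5ar1 was at 0.191, 0.105 and 0.265 CPM in WT and 0.465, 0.379 and 0.743 CPM in GFAP-IL6. The groups did not overlap, and the difference was 1.54 on the log2 scale with p = 0.1 by the same exact permutation test. C3ar1 was at 0.526, 0.658 and 0.825 CPM per 100 CPM of markers in WT and 0.662, 0.947 and 0.867 in GFAP-IL6. These values overlapped, with a difference of 0.31 and p = 0.2 by the same exact permutation test. C5ar1 was therefore higher in all GFAP-IL6 libraries also when set against the microglial markers, while C3ar1 overlapped through WT replicate 3 alone. Without that library the C3ar1 values did not overlap, though 0.658 in WT replicate 2 and 0.662 in GFAP-IL6 replicate 1 were close. The difference was then 0.47 for C3ar1 and 1.84 for C5ar1, so the contrast between the receptors depends on this library. Markers of infiltrating leukocytes, some of which are known to carry C5ar1, were also summed. Of these, 5 of 8 never exceeded 3 counts, and their summed level was 0.174 to 1.19 CPM in WT and 1.06 to 2.57 CPM in GFAP-IL6. C5ar1 itself was of a similar order, with means of 0.768 CPM in WT and 3.56 CPM in GFAP-IL6. The part of infiltrating leukocytes in the receptor values was not tested.

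The fluid-phase regulators were examined next. Clu (ENSMUSG00000022037.12, chromosome 14, 65968483 to 65981547, plus strand) had the most counts of all members, with 653, 764 and 769 CPM in WT replicates 1, 2 and 3 and 708, 829 and 904 CPM in GFAP-IL6. GFAP-IL6 replicate 1 lay within the range of WT. The log2 fold change was 0.16 (95% interval -0.06 to 0.38; edgeR, adjusted p = 0.390), so that with at least 6280 counts per library a change beyond 1.30-fold upward lay outside the interval. Clu is also known from the choroid plexus, and without WT replicate 3 its log2 fold change was 0.20. The part of the choroid plexus in the Clu values was not tested.

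Cfi (ENSMUSG00000058952.10, chromosome 3, 129835884 to 129875332, plus strand) was counted 1, 3 and 0 times in WT libraries, against 2, 0 and 0 times in those of GFAP-IL6. It did not pass the low-count filter, and with every library at or under 3 counts (0.178 to 0.397 CPM, depending on the library) no fold change is given. Factor I transcripts were thus not detectable above the floor in either group.

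Among the membrane regulators, Cr1l (ENSMUSG00000016481.13, chromosome 1, 195097382 to 195131586, minus strand) had 18.4, 15.9 and 18.2 CPM in WT replicates 1, 2 and 3 and 19.5, 19.1 and 21.3 CPM in GFAP-IL6. The groups did not overlap, but the gap between them was small. Its change on the log2 scale was 0.20 (95% interval -0.04 to 0.44; edgeR, adjusted p = 0.326).

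Cd55 (ENSMUSG00000026399.10, chromosome 1, 130439027 to 130462744, minus strand) had 4.27, 4.77 and 4.52 CPM in WT and 3.85, 4.36 and 4.35 CPM in GFAP-IL6. The groups overlapped, with GFAP-IL6 replicate 1 the lowest. On the log2 scale the difference was -0.12 (95% interval -0.52 to 0.28; edgeR, adjusted p = 0.746). An antisense gene, Gm16083, covers 102 exon bases of Cd55 (2.10%), and its reads cannot be told apart from those of Cd55 if strand was not used in counting. The close paralog Cd55b, listed under its older name Daf2, had 0 counts in all libraries.

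Cd59a (ENSMUSG00000032679.10, chromosome 2, 104095801 to 104115354, plus strand) varied most among the regulators tested. It had 2.53, 4.18 and 4.46 CPM in WT replicates 1, 2 and 3 and 2.51, 5.28 and 3.35 CPM in GFAP-IL6, so that both the lowest and the highest value were in GFAP-IL6. The log2 fold change was -0.06 with a wide 95% interval of -0.70 to 0.57 (edgeR, adjusted p = 0.923). Its neighbour and paralog Cd59b had between 7 and 12 counts per library and a log2 fold change of 0.33 ± 0.35 (SE; edgeR, adjusted p = 0.624). With a WT mean of 0.788 CPM, Cd59b also needed its GFAP-IL6 libraries to pass the low-count filter. The study counted uniquely aligned reads, a step it describes for its 3′-end libraries, and under it reads shared by both paralogs would be missing from both values.

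Csmd1 (ENSMUSG00000060924.12, chromosome 8, 15892537 to 17535586, minus strand) had 114, 75.3 and 95.6 CPM in WT replicates 1, 2 and 3 and 120, 109.7 and 107.5 CPM in GFAP-IL6. WT replicate 1 lay above the lower GFAP-IL6 libraries. On the log2 scale the difference was 0.25 (95% interval -0.03 to 0.52; edgeR, adjusted p = 0.290). Without WT replicate 1 it was 0.40 and just past the threshold, with an adjusted p of 0.0487. Its relatives Csmd2 and Csmd3 had log2 fold changes of 0.22 and 0.15 and were not called.

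The lectin pathway protease gene Masp1 (ENSMUSG00000022887.8, chromosome 16, 23449417 to 23520815, minus strand) had 6.97, 8.29 and 7.16 CPM in WT and 8.43, 7.13 and 8.71 CPM in GFAP-IL6. The groups overlapped. Its fitted log2 fold change was 0.12 (95% interval -0.22 to 0.45; edgeR, adjusted p = 0.703). The counts are per gene and do not separate the protease transcripts from the spliced form without the protease domain. Masp2, which encodes the other main lectin pathway protease, had a log2 fold change of 0.17 and was not called.

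**Figure D2:**
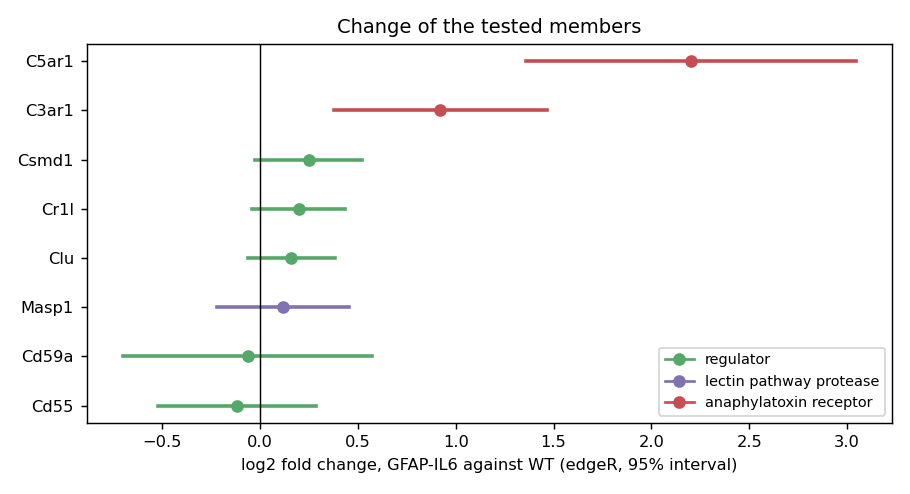
Log2 fold change between GFAP-IL6 and WT (x axis, edgeR) of the 8 members tested, with bars for the 95% interval, in green for regulators, purple for the lectin pathway protease and red for anaphylatoxin receptors. The intervals of both receptors lie above 0 (C3ar1 0.37 to 1.47, C5ar1 1.36 to 3.04), and those of the 6 other genes include 0.

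The regulators were then set against the receptors. The mean log2(CPM + 0.5) of the 6 regulators was 3.92, 3.99 and 4.01 in WT replicates 1, 2 and 3 and 3.98, 4.10 and 4.04 in GFAP-IL6, and that of the 2 receptors was 0.77, 0.88 and 1.36 in WT and 2.01, 2.11 and 2.65 in GFAP-IL6. The regulator means overlapped between groups, and the receptor means did not. The receptor mean minus the regulator mean averaged -2.97 ± 0.28 over WT libraries and -1.78 ± 0.34 over those of GFAP-IL6 (SD of 3 libraries each), a shift of 1.19 towards the receptors. This score over chosen members is a description and was not tested. For single genes, the 95% interval of C5ar1 began at 1.36, above the upper end of the interval of each of the regulators tested, the highest of which was 0.57 for Cd59a. The interval of C3ar1 began at 0.37 and overlapped with those of regulators.

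**Figure D3:**
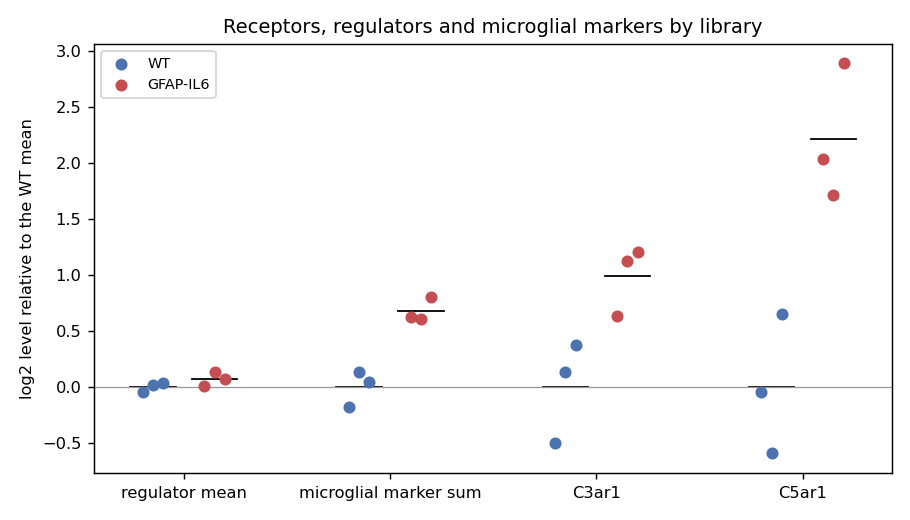
Log2 level relative to the WT mean (y axis) of the mean of 6 regulators, the sum of 8 microglial markers, C3ar1 and C5ar1 in each WT library (blue) and GFAP-IL6 library (red), with lines at group means. The mean difference was 0.07 for the regulators and 0.68 for the markers, and the C5ar1 points of GFAP-IL6 lie above all other points shown.

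Levels of the members were compared with each other per gene length, as TPM, in which counts are divided by gene length and scaled to the same sum in each library, with the lengths deposited beside the counts. In WT the order was Clu (1115 ± 78.2 TPM), Csmd1 (18.7 ± 4.36), Cr1l (13.2 to 16.2 over the libraries), Masp1 (7.52 ± 0.509), Cd59a (5.68 ± 1.50), Cd55 (4.95 ± 0.131), C3ar1 (1.80 ± 0.503), C5ar1 (0.832 ± 0.365; SD, n = 3 each) and, at the floor, Cfi. Csmd1 and Cr1l overlapped, as did Cd59a and Cd55, while every other neighbour in this order was separated in all WT libraries. In GFAP-IL6, C5ar1 stood at 4.04 ± 1.78 TPM and C3ar1 at 3.70 ± 0.714 TPM (SD, n = 3 each), with overlap between them and between C5ar1 and Cd55 at 4.82 ± 0.288 TPM. In GFAP-IL6 the order of Masp1, Cd59a, Cd55, C5ar1 and C3ar1 was therefore not resolved between neighbours.

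Clu took between 94.5% and 95.8% of the summed TPM of the 9 members in every library. The receptors together took 0.188%, 0.200% and 0.282% in WT replicates 1, 2 and 3 and 0.515%, 0.479% and 0.675% in GFAP-IL6. The order among the middle genes depended on the length used. With the length of each member replaced by all its exon bases in GENCODE release M21, an alternative chosen after seeing the data, Masp1 is 9833 bases long in place of 2752 and stood at 2.11 TPM in WT, next to C3ar1, and Clu remained first at 588 TPM.

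Other complement genes were compared beside the members, from lists chosen with results of these libraries known. Among further regulators, Serping1, which encodes the C1 inhibitor, had a log2 fold change of 0.82 ± 0.28 (SE; edgeR, adjusted p = 0.133). Cd46, a membrane cofactor for factor I, had a log2 fold change of 0.20 (edgeR, adjusted p = 0.182). No count is given for the further regulators as a list, since not all of its genes are reported here.

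Of 7 further receptors, 5 were tested and 3 were called, beside 1.36% higher DEGs among all genes tested, with a median log2 fold change of 1.62. These were Itgam (2.03), Itgb2 (1.62) and Itgax (3.02), which encode the subunits of complement receptors 3 and 4, integrins that bind the C3 fragment iC3b on phagocytes. Itgam rose from 26.1 ± 1.80 to 106.6 ± 10.2 CPM and Itgb2 from 5.25 ± 0.024 to 16.1 ± 0.914 CPM (SD, n = 3 each), whereas Itgax went from 1, 5 and 4 counts to 24, 12 and 17. Itgax passed the low-count filter only through its GFAP-IL6 libraries, so it could be tested only because it was high there. Vsig4 had 0 counts in all libraries.

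Of 29 components of the cascade, 28 had a row in the table and 13 were tested, with a median log2 fold change of 0.58. Of those tested, 5 were called, beside 1.36% higher DEGs among all genes tested. These were C4b (4.80) and C3 (4.97), which are the substrates of factor I once cleaved, and C1qa (1.61), C1qb (1.54) and C1qc (1.50), which encode the chains of C1q. C1qa rose from 36.7 ± 4.60 to 112 ± 13.3 CPM and C4b from 11.2 ± 1.29 to 315 ± 77.3 CPM (SD, n = 3 each). C3, as said above, passed the low-count filter only through its GFAP-IL6 libraries. Among the terminal components, C9 had 0 counts, C6, C8a and C8b never exceeded 3, and C7 and C8g were detected with 5 to 37 counts per library. C4a, the paralog of C4b, had no row in the table and could not be analysed. The value of C4b is uncertain to the extent that C4a and C4b share reads.

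**Figure D4:**
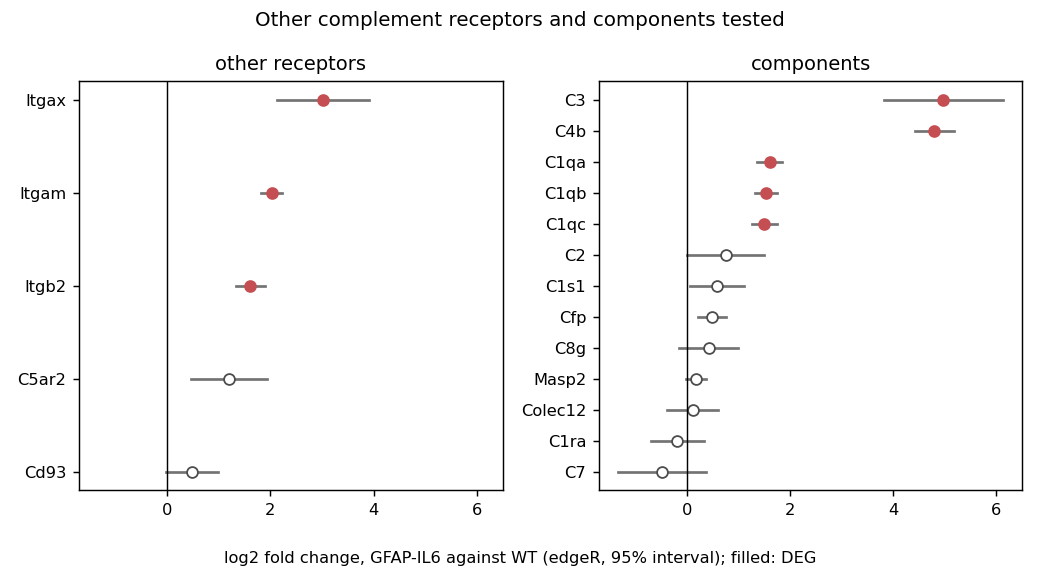
Log2 fold change between GFAP-IL6 and WT (x axis, edgeR) with 95% interval for the other complement receptors (left panel, 5 genes) and components (right panel, 13 genes) that were tested. Filled points are DEGs, 3 of the receptors and 5 of the components, all to the right of 0, beside 1.36% higher DEGs among all genes tested.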

How the data were processed

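Frontal cortex RNA of 3 GFAP-IL6 and 3 WT mice was sequenced with TruSeq mRNA libraries. The deposited values are raw counts per gene. For these, the authors aligned reads to mm10 with STAR (version 2.4 per the labels) and counted them on GENCODE genes with featureCounts, with strand use not given in the sources used here. The authors also deposited a length per gene, whose definition is not given. It equals the summed GENCODE M21 exons for C3ar1, C5ar1 and Cd59a and is shorter for the other 6 members. Groups and replicate numbers came from the titles, and gene positions from GENCODE M21 (GRCm38).

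Counts were fitted over all genes with edgeR 4.0.16 (R 4.3.3) by the quasi-likelihood test, with TMM scaling, filterByExpr and Benjamini-Hochberg adjustment over 15341 genes. Standard errors were derived from the F statistic. DESeq2 1.42.0, limma-voom (limma 3.58.1), other scalings and filters, thinning, a replicate block and leaving out each library were alternatives. The fits were tested on simulated counts with 200 changed genes, drawn with the same dispersion for every gene. That check concerns the code and does not gauge how reliable the fits are for low-count genes. A count of 3 or fewer was treated as the floor, which covers counting error only, since reads carried no molecular identifiers. No pair of libraries had counts equal within sampling noise (chi-square per degree of freedom of 2.29 to 21.8 over 15 pairs). Members, lists and motifs were chosen with earlier results of these data known. All members were named, with the companion genes at an adjusted p under 0.05, close paralogs, and the 2 genes nearest in profile to a called member. Other companion genes were named after their values were seen. Some genes of these lists are not reported here.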

Additional observations from a re-analysis of the deposited data

How the results depend on the processing

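C5ar1 stayed higher in every alternative, with log2 fold changes of 1.80 to 2.62 when each library was left out in turn and 2.18 to 2.33 otherwise, and it lost its call only without GFAP-IL6 replicate 3 (adjusted p of 0.0699 by edgeR). The number of DEGs among the members was 0 to 1 across the fits that left out a library and 1 in all other alternatives. With no threshold on the fold change it was 0 to 2 across those fits, and 2 without the low-count filter and with the replicate block. C3ar1 passed an adjusted p of 0.05 without the low-count filter (log2 fold change of 0.92) and with the replicate block (0.97), and had 0.74 to 1.11 with a library left out. Csmd1 ranged from 0.10 to 0.40 in those fits and passed only without WT replicate 1. Cd59a changed sign, from -0.38 to 0.18 across the fits that left out a library and 0.16 after thinning to the smallest library, with no adjusted p under 0.05. The cause was not tested. DEGs over all genes numbered 129 (without GFAP-IL6 replicate 3) to 239 across these fits. The number of further complement genes called over all lists was 8 to 11 across the alternatives, against 9, so that single genes crossed the threshold. Clu, Cd55, Cr1l and Masp1 kept their direction and their side of the threshold in the alternatives run. The shift between receptors and regulators (0.98 to 1.48) and the ratios of both receptors to the microglial markers kept their direction.

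The deviations of same-numbered libraries from their group means correlated at 0.10, 0.01 and 0.02. Those of differently numbered libraries correlated at -0.08 to 0.05. All were weak, and 3 libraries per group cannot settle whether the replicate numbers pair the libraries. The replicate block, which gave 2 members at an adjusted p under 0.05 in place of 1, is given only as an alternative. Depth limits the low members most: C5ar1 had 34 counts over the WT libraries and Cfi 4.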
